A study of Mus musculus with 11 samples.

Results

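Genes for RNA polymerase II pausing and elongation factors and for the proteins of the U1 small nuclear ribonucleoprotein (U1 snRNP) were examined in nascent RNA of mouse embryonic stem cells. The members were a list of 35 genes given by name, of which 34 were found by symbol among the 13088 rows of the exon-based table; Ell2 was not analysed here. By gene identifier, 19 of the 34 also had a row among the 5867 regions of upstream antisense RNA (uaRNA), the short-lived transcript that leaves a promoter in the direction opposite to its gene. The cells were wild-type F121-9, an established female stem cell line of a CAST/129 hybrid background, grown without serum in medium with LIF, a MEK inhibitor and a GSK3 inhibitor. Both groups carried 30 nM of an siRNA, either the non-targeting siNT (n = 3, replicates 1, 2 and 3) or siZC3H4 against Zc3h4 (n = 2, replicates 2 and 3). Newly made RNA was tagged with 500 µM 4-thiouridine for the last 20 minutes before harvest at 47 hours after transfection, then pulled down and sequenced (TT-seq). The 6 DMSO and dTAG samples of the series were not analysed here. The labels do not state whether replicates were separate cultures, so p-values measure only the spread between these libraries.

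After initiation, RNA polymerase II pauses a short way into the gene, held by NELF together with DSIF, the complex of SPT5 and SPT4. P-TEFb, the kinase CDK9 with a cyclin T, phosphorylates NELF, DSIF and the polymerase and so releases the pause; it is kept inactive in the 7SK complex by HEXIM1 and LARP7 and is brought to genes by the super elongation complex of AFF4 and ELL proteins. SPT6 and the PAF complex then travel with the polymerase, and CDK12 and CDK13 with cyclin K keep phosphorylating its tail along the gene body. The U1 snRNP recognises 5′ splice sites and also protects nascent transcripts from early cleavage and termination. ZC3H4 and WDR82 make up Restrictor, a complex that ends the transcription of uaRNAs and other noncoding RNAs early.

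Each value, called reads below, is a read number after division by the depth factor that the authors gave its library. Before that division the libraries held 14840637 to 26548710 exon reads and 996927 to 2648683 uaRNA reads. The siRNA target was checked first: Zc3h4 had 3465, 3610 and 3363 exon reads under siNT, against 7285 and 6718 under siZC3H4, and rose (log2 1.01 ± 0.11 SE, limma adjusted p = 0.00431). The target was therefore not lower in nascent RNA in the libraries labelled siZC3H4; its mature mRNA was not measured, and every direction below is that of the libraries so labelled. Of the 8 naive stem cell markers listed all were in the table, with summed exon reads of 89522 to 106425 and 75986 to 92314. Markers of other cell types were low or not in the table, except the trophoblast marker Tfap2c. It had 2232, 1703 and 2188 exon reads under siNT, against 1955 and 2060 under siZC3H4. The 1 fibroblast or feeder marker in the table, of 6 listed, held 81 to 135 and 76.5 to 99 reads. The 4 primitive endoderm markers, of 6 listed, summed to 124 to 237 and 246 to 279, and the 2 trophoblast markers, of 6 listed, to 1876 to 2415 and 2183 to 2228. The endoderm sum was higher in both libraries labelled siZC3H4, and its part in the results below was not tested.

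Exon reads of the pausing, elongation and U1 snRNP genes were compared first, to ask whether the machinery of elongation was itself transcribed differently. All 34 passed the filter on low values. None passed the test: 0 rose and 0 fell, where 2.22% of 12482 genes rose and 0.144% fell (limma, adjusted p under 0.05). The all-gene count depended on single libraries: 277 genes rose with all 5, 2 without siNT replicate 1, 676 without siNT replicate 3, and 10 and 80 without siZC3H4 replicate 2 and 3. The members' median log2 difference was 0.00, beside 0.01 over all genes. At an unadjusted p under 0.05 the limma count was 1 of 34 (Hexim1), beside 1915 of all 12482 genes. On the recovered reads edgeR and DESeq2 also called 0. A fit with a term for the replicate number (a replicate block) called Hexim1 as fallen, as given below. Missing the threshold does not show that values were equal, so the 95% interval of each difference is the more useful measure. It lay between -0.58 and 0.58 on the log2 scale, a change of less than about 1.495-fold either way, for 30 of the 34 genes. The widest upper limit was 0.76, for Larp7, and the lowest lower limit was -0.87, for Hexim1. In 2 genes, Ctr9 and Snrpb, both libraries labelled siZC3H4 lay above every siNT library (19.5% of all genes), and in 6, Nelfcd, Leo1, Hexim1, Aff4, Snrnp70 and Snrpg, both lay below (12.8% of all genes).

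**Figure D1:**
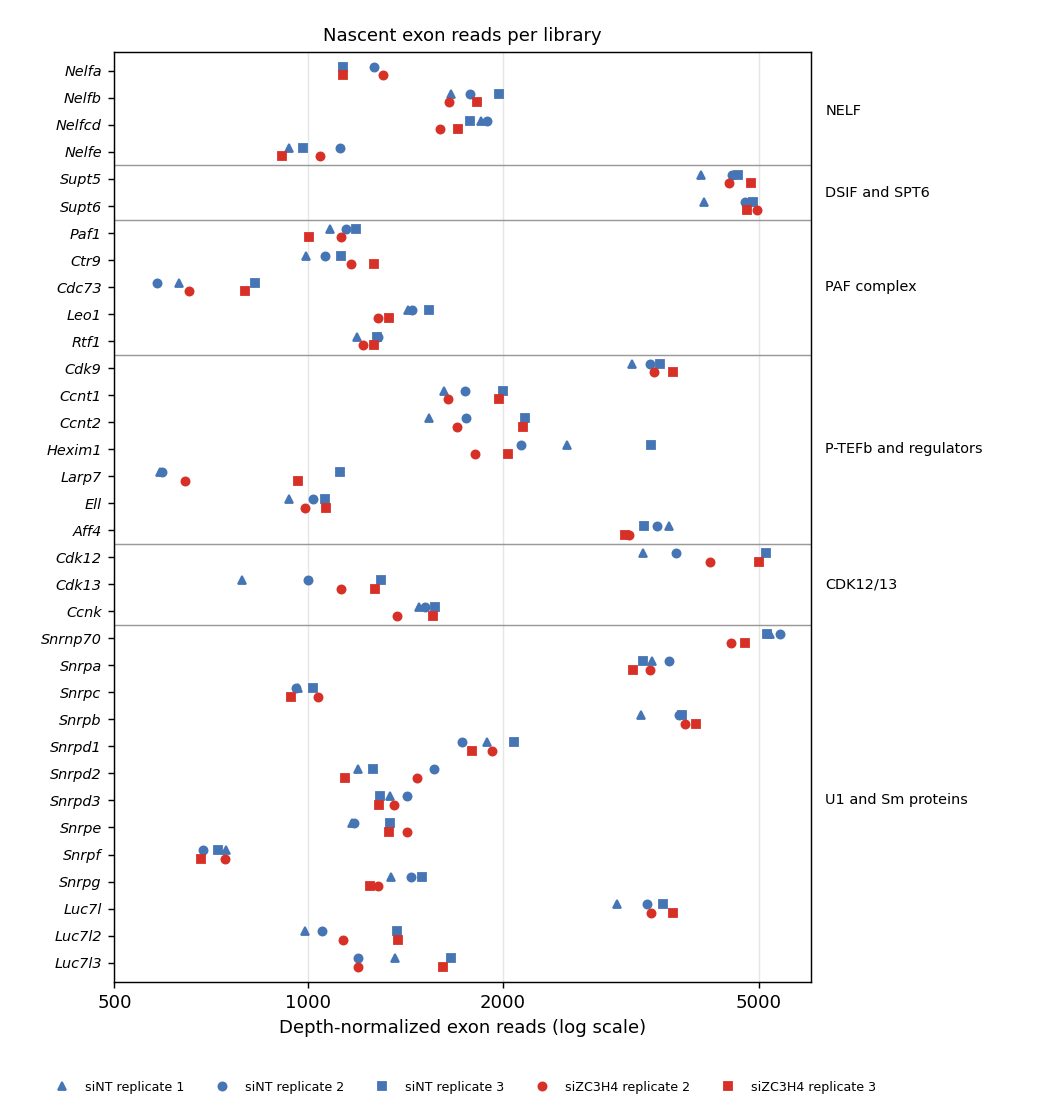
Depth-normalized exon reads (log axis) of the 34 genes, 1 point per library (siNT blue, n = 3; siZC3H4 red, n = 2; symbol shape gives the replicate number), ordered by complex. The groups overlap in most rows; Hexim1 shows the 2 libraries labelled siZC3H4 (1810 and 2037) below all siNT libraries, and Larp7 shows both replicates numbered 3 (1119 and 965) to the right of the rest.

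The uaRNAs of the same promoters were compared next. Of the 19, 18 passed the filter and 1, that of Snrpd1, had 0.853 to 4.53 reads and was not tested. Of the 18, 12 rose, 0 fell and 6 did not pass, where 62.1% of 5124 uaRNAs rose and 1.13% fell, so the members' share of rises was close to that of uaRNAs in general. Their median log2 difference was 0.85, beside 0.88 over all uaRNAs. In 14 both libraries labelled siZC3H4 lay above every siNT library (73.7% of all uaRNAs), and in 0 below (2.11% of all). Of the 12 rises, 10 kept the call with each library left out in turn. That of Supt5 was lost without siNT replicate 2 (log2 0.52) and without siZC3H4 replicate 2 (0.50), and that of Aff4 likewise (0.65 and 0.59) and by DESeq2 (0.95) or with no filter (0.92). The Ell uaRNA passed the filter only through the libraries in which it was high, so the count of rises is a description and no support. These calls rest on the authors' depth factors, shared by both tables. Scaling the uaRNA table on itself moved the median of all uaRNAs from 0.88 to 0.02 (TMM), 0.00 (median of ratios) or 0.32 (equal totals). Over all uaRNAs it gave 548 rises and 573 falls, 527 and 600, and 1257 and 319, in place of 3180 and 58. It left 2, 2 and 6 members risen, with Ell and Luc7l3 risen under each, while of the 12 Supt5, Hexim1 and Luc7l2 turned below 0 under the first and the second.

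**Figure D2:**
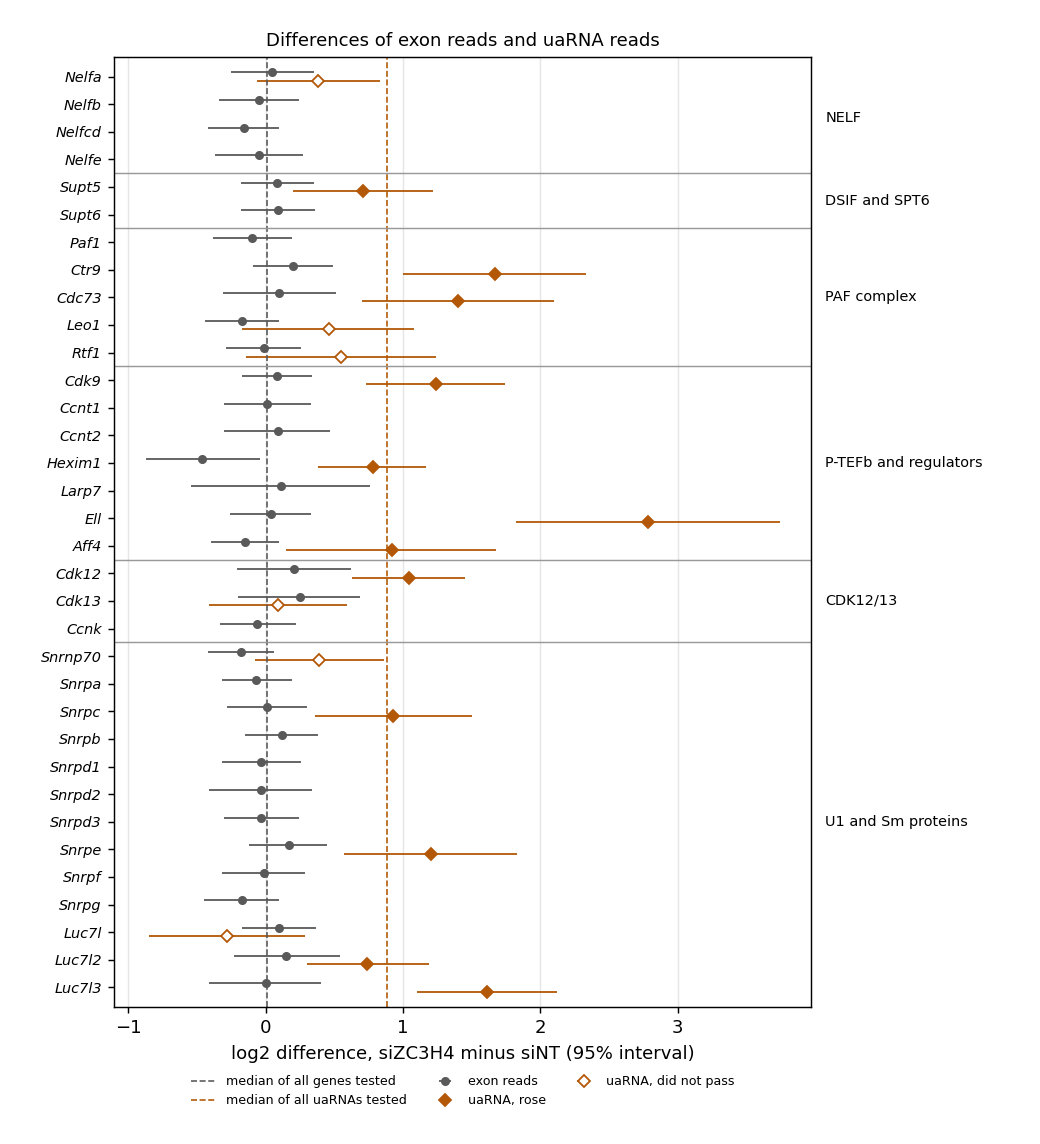
Difference on the log2(value + 1) scale, siZC3H4 (n = 2) minus siNT (n = 3), of exon reads (grey circles) and uaRNA reads (orange diamonds, filled where the uaRNA rose at the authors' depth factors), with limma's 95% intervals as bars. Dashed lines give the medians of all genes (0.01) and of all uaRNAs (0.88); exon values sit around the first, while the uaRNA values run from -0.28 (Luc7l) to 2.78 (Ell).

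Antisense-strand bases next to the RefSeq start are shown for Luc7l3 and Hexim1, whose uaRNAs rose, and for Cdk13, whose uaRNA did not pass. Each line is the antisense strand of the 250 bases before the RefSeq start (GRCm38.p6, the build mm10), 5′ to 3′ away from the gene, with CG dinucleotides in capitals. The uaRNA table gives no coordinates, so how these windows overlap its regions is unknown. The RefSeq start also differs from the deposited one: the Cdk13 window lies inside the deposited gene for 197 of its 250 bases and the Hexim1 window for 91, while the Luc7l3 window lies wholly upstream, with 27 bases between.
Luc7l3 (chr11:94321964-94322213, + strand): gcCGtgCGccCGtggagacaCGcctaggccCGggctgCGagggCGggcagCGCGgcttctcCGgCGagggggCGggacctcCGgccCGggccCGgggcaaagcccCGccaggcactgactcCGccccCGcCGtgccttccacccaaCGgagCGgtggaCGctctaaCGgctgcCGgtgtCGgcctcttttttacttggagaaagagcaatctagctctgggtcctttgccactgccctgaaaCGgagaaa
Hexim1 (chr11:103116075-103116324, - strand): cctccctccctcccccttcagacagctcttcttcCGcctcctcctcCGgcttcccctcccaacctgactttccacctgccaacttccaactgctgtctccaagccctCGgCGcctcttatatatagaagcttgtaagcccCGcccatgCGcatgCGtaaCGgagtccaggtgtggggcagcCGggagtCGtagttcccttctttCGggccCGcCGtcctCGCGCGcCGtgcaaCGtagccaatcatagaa
Cdk13 (chr13:17805098-17805347, + strand): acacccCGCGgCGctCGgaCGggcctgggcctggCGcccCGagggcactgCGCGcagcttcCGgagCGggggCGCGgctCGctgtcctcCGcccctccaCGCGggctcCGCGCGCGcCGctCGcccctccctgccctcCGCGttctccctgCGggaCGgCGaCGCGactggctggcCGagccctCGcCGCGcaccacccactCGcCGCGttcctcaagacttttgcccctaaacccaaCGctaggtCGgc
The Luc7l3 window held 26 CG dinucleotides, the Hexim1 window 18 and the Cdk13 window 39. Over the 14 members with a uaRNA row and a RefSeq start within 500 bases of the deposited one, the median was 25.5, beside 18 over 4477 protein-coding uaRNA hosts. Since the 3 windows lie differently against the deposited starts, their counts are not compared with each other.

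The same windows were searched on the antisense strand for GGTAAG, letters of a strong 5′ splice site, and for AATAAA, the polyadenylation signal. Among the 14 members with a uaRNA row 0 held GGTAAG and 0 held AATAAA, where 1.97% and 3.55% of the 4477 hosts did. Among 11 members without a uaRNA row 3 held GGTAAG, beside 3.52% of 4454 protein-coding genes without one. Those 3, Ccnt1, Paf1 and Snrpf, are shown around the match, which is in capitals.
Ccnt1: cgcgagaactgcGGTAAGggggcct
Paf1: ggctaatctgtcGGTAAGgcatggctaact
Snrpf: tcctagcaaccaGGTAAGcgtgtgtttgtg
The match began 238, 232 and 112 bases from the RefSeq start of Ccnt1, Paf1 and Snrpf. A match of letters is a description and not a site of use, and the absence of a match says only that these letters were not in the window. Among the 15 members without a uaRNA row, 13 had a second RefSeq gene within 1 kb before the start, all but Nelfcd and Snrpb. The neighbours included Skiv2l at Nelfe, Med29 at Paf1, Sdf2 at Supt6 and Gucd1 at Snrpd3. Ccnt1 (9330020H09Rik) and Snrpf (4933408J17Rik) had one too. The GGTAAG letters at Ccnt1, Paf1 and Snrpf can therefore lie in a neighbouring gene, which was not tested. Of all 6142 protein-coding genes without a uaRNA row 48.8% had such a neighbour. Of members with a row it was 3 of 19, beside 20.9% of all hosts. The 3 were Cdk12 (Gm38963), Cdk9 (Gm33457, Mir2861 and Mir3960) and Ell (Gm51534), where uaRNA reads can include those RNAs, a part that was not tested.

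All 4 NELF genes had exon levels above the median of all genes. Per kb of transcript, the siNT libraries had 819 ± 25.4 reads for Nelfcd and 544 ± 35.9 (SD, n = 3) for Nelfa, at the high and low end of the 4. The median of all genes tested was 194.5 reads per kb, and 24 of the 34 members exceeded the upper quartile of 507.5. Nelfcd, which encodes the subunit NELF-C/D, had 1851, 1894 and 1781 exon reads under siNT against 1601 and 1704 under siZC3H4. Both of the latter lay lower without passing the test (log2 -0.16, interval -0.42 to 0.10). Nelfa, Nelfb and Nelfe had log2 differences of 0.05, -0.05 and -0.05. Nelfa exon reads, 1131, 1265 and 1131 against 1303 and 1133, overlapped between the groups. Nelfe encodes the RNA-binding subunit. Nelfa was the 1 NELF gene with a uaRNA row, with 339, 406 and 341 reads against 493 and 450. The groups did not overlap, and the difference did not pass (log2 0.38 ± 0.22 SE, limma adjusted p = 0.125).

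Supt5, the large subunit of DSIF, and Supt6, the histone chaperone SPT6, had 1237 ± 87.1 and 740 ± 66.9 reads per kb (SD, n = 3). Supt5 had 4062, 4543 and 4644 exon reads against 4488 and 4861, and Supt6 had 4112, 4754 and 4887 against 4966 and 4781. Both sets overlapped, with log2 differences of 0.08 ± 0.12 and 0.09 ± 0.12 SE. The Supt5 uaRNA rose from 151, 115 and 196 to 286 and 213 reads (log2 0.71 ± 0.26 SE, limma adjusted p = 0.0139). The highest siNT and the lowest siZC3H4 library were close for this uaRNA.

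Exon levels of the PAF complex genes ranged from 675 ± 27.0 reads per kb for Leo1 to 96.6 ± 18.3 (SD, n = 3) for Cdc73. Ctr9, the scaffold subunit, had 991, 1060 and 1125 exon reads against 1163 and 1266, higher in both libraries labelled siZC3H4 but short of the threshold (log2 0.20, interval -0.09 to 0.49). Leo1 lay on the other side, with 1425, 1449 and 1537 against 1281 and 1333 (log2 -0.17, interval -0.44 to 0.10). Paf1, Cdc73, the tumour suppressor also called parafibromin, and Rtf1, which promotes ubiquitination of histone H2B, had values of -0.10, 0.10 and -0.01. Cdc73 exon reads were 630, 583 and 825 against 653 and 798, with both replicates numbered 3 above the others. Of the 4 PAF uaRNAs tested 2 rose, beside 62.1% of all uaRNAs. That of Ctr9 went from 25, 21.7 and 49.5 to 91.1 and 104 reads (3.17-fold, log2 1.67 ± 0.33 SE, limma adjusted p = 2.78e-05). That of Cdc73 went from 23, 19.1 and 26.5 to 66.8 and 56.4 (log2 1.40 ± 0.35 SE, limma adjusted p = 5.99e-04). For Ctr9, Cdc73 and Rtf1 both libraries labelled siZC3H4 lay above every siNT library, as in 73.7% of all uaRNAs. The uaRNAs of Rtf1 (29, 30.4 and 33.3 against 43.6 and 47.8) and Leo1 (74, 42.6 and 54.6 against 104 and 56.4) did not pass, with log2 values of 0.55 ± 0.34 and 0.46 ± 0.31 SE. The Leo1 value was 0.02 without siZC3H4 replicate 2 and 0.89 without siZC3H4 replicate 3.

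Among P-TEFb and its regulators, Cdk9, the pause-release kinase, had the highest exon level with 1996 ± 99.6 reads per kb, and Ell the lowest with 253 ± 16.1 (SD, n = 3). Hexim1, the inhibitor of P-TEFb, had the lowest unadjusted p of the 34 genes. It had 2517, 2138 and 3399 exon reads under siNT against 1810 and 2037 under siZC3H4. The groups did not overlap, but the siNT libraries spread over a wide range, and the difference did not pass (log2 -0.46 ± 0.18 SE, limma adjusted p = 0.276). Replicate 3 was the highest library of each group. With a replicate block Hexim1 fell (log2 -0.49, limma adjusted p = 3.05e-05), as did 830 of all 12482 genes. The labels do not say what a replicate number marks. Larp7, which binds and stabilises the 7SK RNA, had 588, 593 and 1119 against 643 and 965 reads, with the replicates numbered 3 high in both groups. Its difference of log2 0.11 was smaller than its SE of 0.29. The cyclins Ccnt1 and Ccnt2 had log2 values of 0.01 and 0.09, Cdk9 0.08, Ell 0.04 and the scaffold gene Aff4 -0.15. The Cdk9 exon reads behind this were 3179, 3385 and 3511 against 3437 and 3683. Ell had 933, 1016 and 1059 against 989 and 1065, and both genes overlapped between the groups. Aff4 had 3620, 3474 and 3311 against 3139 and 3100, lower in both libraries labelled siZC3H4.

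All 4 uaRNAs tested in the P-TEFb group rose, with groups that did not overlap. Over all uaRNAs 62.1% rose, and in 73.7% both libraries labelled siZC3H4 lay above every siNT library. Each of the 4 calls had a limit. Ell passed the filter only through the libraries labelled siZC3H4, and the Aff4 call was lost by DESeq2 or with no filter. With TMM or median-of-ratios scaling of the uaRNA table only Ell kept the call. The log2 values were then 0.36 and 0.34 for Cdk9, -0.10 and -0.12 for Hexim1 and 0.07 and 0.05 for Aff4. The uaRNA of Ell, which encodes an elongation factor of the super elongation complex, had the largest fold of the members. It went from 3, 6.96 and 5.97 to 43 and 38.2 reads (log2 2.78 ± 0.48 SE, 6.86-fold, limma adjusted p = 2.13e-06). Each siNT library lay below the filter of 10, which Ell passed only through the libraries labelled siZC3H4, so that it had to differ. The Cdk9 uaRNA rose from 140, 126 and 99.8 to 321 and 255 (log2 1.24 ± 0.25 SE, limma adjusted p = 3.96e-05). The Hexim1 uaRNA was the one with the most reads among the members and rose from 1385, 1163 and 1602 to 2440 and 2263 (log2 0.78 ± 0.20 SE, limma adjusted p = 7.03e-04). Its gene spans 3492 bases, equal to its transcript length, so its exon reads cover the whole gene. The Aff4 uaRNA rose from 23, 13.9 and 27.3 to 50.4 and 31.5 (log2 0.92 ± 0.38 SE, limma adjusted p = 0.0327), with the closest libraries 27.3 and 31.5.

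**Figure D3:**
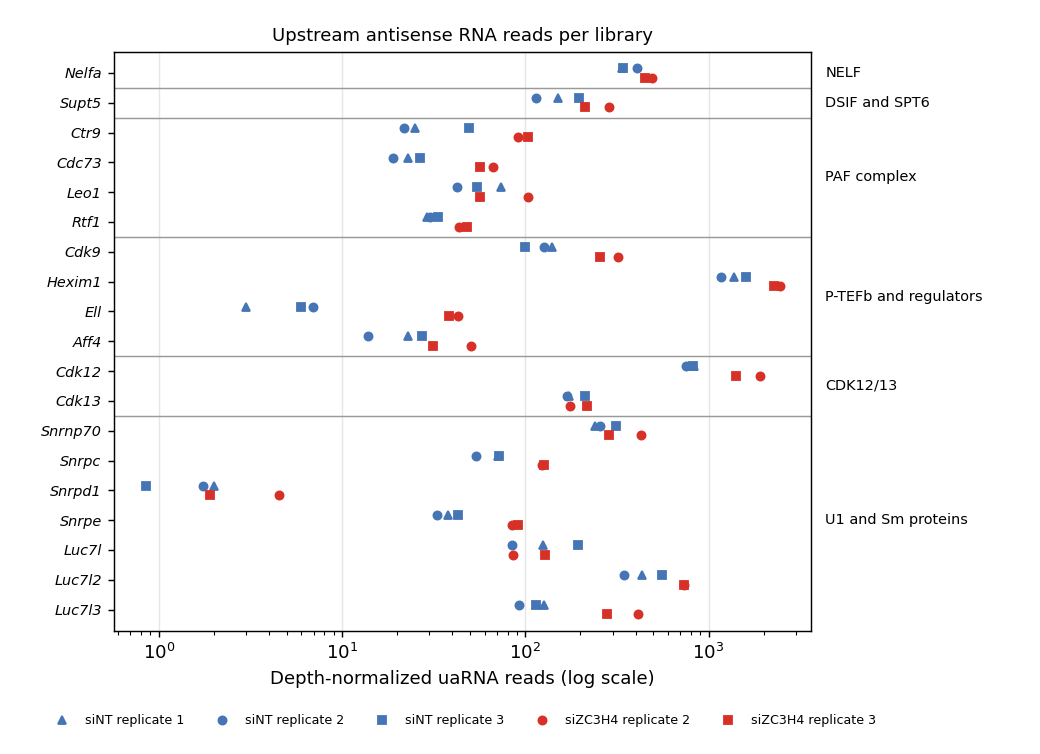
Depth-normalized uaRNA reads (log axis) of the 19 members with a uaRNA row, 1 point per library (siNT blue, n = 3; siZC3H4 red, n = 2; symbol shape gives the replicate number). The 2 red points lie right of the blue ones for Ell, Cdk9, Hexim1, Ctr9 and Luc7l3 at the authors' depth factors, and overlap their range for Cdk13 and Luc7l.

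The kinase genes Cdk12 and Cdk13 and their cyclin partner Ccnk had 498 ± 117, 176 ± 43.5 and 596 ± 17.0 exon reads per kb (SD, n = 3). Cdk13 had the largest positive exon difference of the 34 genes, with 788, 998 and 1294 against 1122 and 1270 reads, but the groups overlapped (log2 0.25, interval -0.20 to 0.69). Cdk12 had 3305, 3716 and 5121 against 4201 and 5005 reads (log2 0.21), again with both replicates numbered 3 highest. Ccnk had 1484, 1516 and 1570 against 1374 and 1560 (log2 -0.06). The uaRNA of Cdk12 rose from 829, 752 and 823 to 1910 and 1421 reads (log2 1.04 ± 0.20 SE, limma adjusted p = 1.95e-05). That of Cdk13 had 173, 168 and 212 against 176 and 216 reads, which overlapped (log2 0.09, interval -0.41 to 0.59). The median of all uaRNAs, 0.88, lay above that interval. Under TMM and median-of-ratios scaling of the uaRNA table the Cdk13 uaRNA fell (log2 -0.78 and -0.81, limma adjusted p = 0.0184 and 0.0170). The Cdk12 uaRNA did not pass under either scaling (log2 0.16 and 0.14, limma adjusted p = 0.513 and 0.578). Whether the pair of kinase genes differed in response was not tested.

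Genes of the U1-specific and Sm proteins had high exon reads per kb of transcript: 12 of 13 in this group exceeded the upper quartile of all genes. Snrpb, which encodes the Sm protein shared by the spliceosomal snRNPs as SmB, was highest at 3218 ± 256 reads per kb, and Luc7l2 lowest at 418 ± 76.0 (SD, n = 3). Snrnp70, the gene of the U1-specific protein U1-70K, had 5191, 5390 and 5142 exon reads against 4516 and 4750. It lay lower in both libraries labelled siZC3H4 without passing (log2 -0.18 ± 0.11 SE, interval -0.42 to 0.06). Snrpa and Snrpc, for the other U1-specific proteins A and C, had log2 values of -0.07 and 0.01. The Snrpc exon reads were 963, 955 and 1018 against 1033 and 939, which enclosed the siNT range.

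The Sm proteins form the ring shared by spliceosomal snRNPs. Snrpe had the largest positive value of the group, with 1169, 1176 and 1340 against 1420 and 1334 exon reads (log2 0.17 ± 0.13 SE). Snrpb had 3283, 3757 and 3803 against 3842 and 3985, higher in both libraries labelled siZC3H4 by a small margin (log2 0.12 ± 0.12 SE). The log2 values were, for Snrpd1, Snrpd2 and Snrpd3, -0.03 each, for Snrpf -0.01 and for Snrpg -0.17. Many Sm genes have processed pseudogenes and Snrpb has the close paralog Snrpn; the sources used here do not say how reads matching several copies were counted, so these levels are uncertain. The LUC7-like proteins, related to a yeast U1 component, had exon differences of 0.10 for Luc7l, 0.15 for Luc7l2 and -0.00 for Luc7l3. Luc7l2 exon reads were 989, 1050 and 1374 against 1133 and 1379, and those of Luc7l3 were 1361, 1195 and 1666 against 1195 and 1619. In both genes the replicates numbered 3 were the highest of their group.

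Of 6 uaRNAs tested in the U1 and Sm group 4 rose and 2 did not pass, where 62.1% of all uaRNAs rose. The Luc7l3 uaRNA, whose promoter is printed above, rose from 126, 93 and 114 to 412 and 279 reads (log2 1.61 ± 0.26 SE, 3.06-fold, limma adjusted p = 3.96e-07). The Luc7l2 uaRNA rose from 433, 346 and 559 to 732 and 735 (log2 0.74 ± 0.22 SE, limma adjusted p = 0.00320). The Luc7l uaRNA did not pass: 125, 84.3 and 195 against 85.5 and 128 reads overlapped (log2 -0.28, interval -0.85 to 0.29). Its sign rested on single libraries, with log2 0.03 without siNT replicate 3 and 0.01 without siZC3H4 replicate 2. Under TMM, median-of-ratios and equal-total scaling of the uaRNA table it fell (log2 -1.15, -1.17 and -0.84). The difference between the 3 Luc7l-family promoters was not tested. Snrpe uaRNA reads rose from 38, 33 and 42.7 to 84.3 and 91.8 (log2 1.20 ± 0.31 SE, limma adjusted p = 9.28e-04). Those of Snrpc rose from 71, 53.9 and 71.7 to 123 and 126 (log2 0.93 ± 0.29 SE, limma adjusted p = 0.00431). Of the 4 rises only that of Luc7l3 was kept under TMM, median-of-ratios and equal-total scaling. The TMM and median-of-ratios log2 values were -0.13 and -0.15 for Luc7l2, 0.34 and 0.32 for Snrpe and 0.06 and 0.04 for Snrpc. The Snrnp70 uaRNA had 239, 256 and 314 against 430 and 287 reads, with siZC3H4 replicate 3 inside the siNT range (log2 0.39 ± 0.24 SE). It rose without that library (log2 0.68, limma adjusted p = 0.0396) and was near 0 without siZC3H4 replicate 2 (0.10).

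Each uaRNA was then set against the exon reads of its own gene within a library, a ratio in which a depth factor shared by both tables cancels. Relative to exon reads 10 of 18 uaRNAs rose and 0 fell, where 53.9% of 5106 hosts rose and 1.23% fell. The count is a description and no support, since Ell, 1 of the 10, passed the filter only through the libraries in which its uaRNA was high. The 10 were also among the 12 that rose in uaRNA reads; the other two, Supt5 and Luc7l2, had limma adjusted p-values of 0.131 and 0.0794. Hexim1 had the highest share of the members. Its uaRNA reads were 55.0%, 54.4% and 47.1% of its exon reads in the siNT libraries and 135% and 111% in those labelled siZC3H4, so antisense reads outnumbered exon reads only in the latter (log2 ratio difference 1.23 ± 0.27 SE, limma adjusted p = 0.00240). At the authors' depth factors the Hexim1 uaRNA rose while the exon reads of the same gene lay lower without passing. With the uaRNA table scaled on itself the uaRNA did not rise (log2 -0.10 by TMM, -0.12 by median of ratios). The median share over all hosts was 6.60% in the siNT libraries.

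Ell was near the other end, with shares of 0.322%, 0.685% and 0.564% against 4.35% and 3.59% (log2 2.74 ± 0.37 SE, limma adjusted p = 2.29e-04). Because of the filter the Ell share had to differ too, so neither this p-value nor its call below is support. The Luc7l3 share went from 9.26%, 7.79% and 6.87% to 34.5% and 17.3% (log2 1.62 ± 0.33 SE, limma adjusted p = 0.00182). The 2 libraries labelled siZC3H4 differed from each other for Luc7l3 by more than the siNT libraries did. The Ctr9 share rose by log2 1.47 ± 0.36 and that of Cdc73 by 1.29 ± 0.32 (SE). Those of Cdk9, Aff4 and Snrpe rose by 1.15 ± 0.33, 1.07 ± 0.41 and 1.03 ± 0.31, and those of Snrpc and Cdk12 by 0.92 ± 0.30 and 0.83 ± 0.31. Without siZC3H4 replicate 2 only Ctr9, Hexim1 and Ell kept the call, 3 in place of 10, with log2 values of all 10 still above 0; over all hosts 916 rose in place of 2752.

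**Figure D4:**
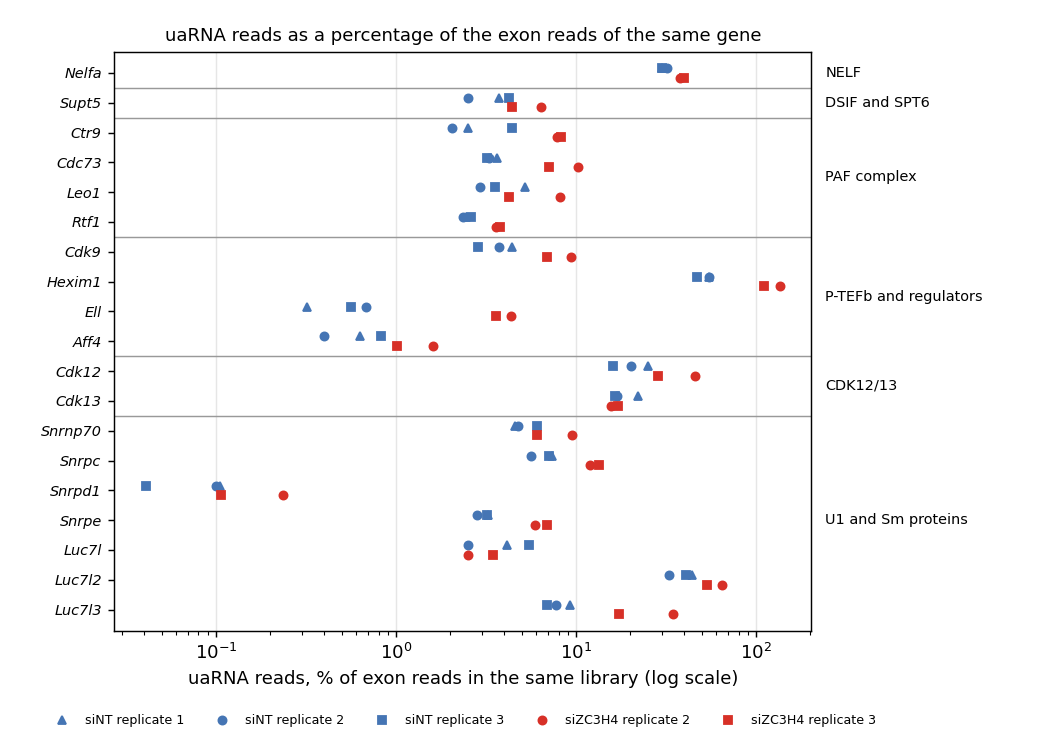
uaRNA reads as a percentage of exon reads of the same gene in the same library (log axis), for the 19 members with a uaRNA row (siNT blue, n = 3; siZC3H4 red, n = 2). Hexim1 passes 100% only in the libraries labelled siZC3H4 (135% and 111%), and the Ell share moves from under 1% to 4.35% and 3.59%.

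Among 34 members, replicate 3 exceeded replicate 2 in both groups in 18 genes (52.9%), beside 45.7% of all genes tested. Larp7 had the widest such gap, log2 0.91 in siNT and 0.58 in siZC3H4. Luc7l3 had 0.48 and 0.44, and Cdk12 had 0.46 and 0.25. In these genes replicates 3 and 2 of each group differed by more than the means of the 2 groups did. What the replicate number marks was not stated in the labels.

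Other genes of the same pathways, from 3 companion lists, gave a similar picture in exon reads. Of 21 companion elongation factors 0 passed the limma test (1 at an unadjusted p under 0.05), with a median log2 of -0.04. Over all 12482 genes tested, 1915 had an unadjusted p under 0.05, the count to set beside those of the 3 lists. The range ran from Eaf2, which binds ELL, at -0.23 ± 0.35 SE to Hexim2, the paralog of HEXIM1, at 0.54 ± 0.20 SE. Of 14 genes for Sm protein assembly 0 passed (3 unadjusted; DESeq2 called 1), with a median of 0.04. Clns1a, which delivers Sm proteins to the methylosome, had -0.34 ± 0.12 SE, and Gemin6, a subunit of the SMN complex, had 0.72 ± 0.19 SE (limma adjusted p = 0.0859). Of 12 U1-associated and LSm genes 0 passed (1 unadjusted), with a median of 0.04, from Tia1 at -0.41 ± 0.17 SE to Tial1 at 0.28 ± 0.19 SE, both RNA-binding proteins that help U1 recruitment.

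Their uaRNAs rose in 5 of 9, 3 of 8 and 3 of 6 tested, with medians of 0.75, 0.46 and 0.52, against 62.1% and 0.88 over all uaRNAs. The largest value in each of the 3 lists was that of Elob, an elongin subunit (log2 2.20 ± 0.22 SE, limma adjusted p = 2.16e-12), Snupn, the import adaptor of snRNPs (1.74 ± 0.30 SE, 1.79e-06), and Lsm4 (0.98 ± 0.25 SE, 7.29e-04). The smallest in each list were those of Cdk7, the TFIIH kinase (-0.37 ± 0.23 SE), and Tia1 (-0.52 ± 0.52 SE), which did not pass, and Gemin2, which fell (-0.56 ± 0.25 SE, limma adjusted p = 0.0434). The difference of these lists from other uaRNAs was not tested.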

How the data were processed

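TT-seq libraries of siNT (n = 3) and siZC3H4 (n = 2) cells were used. The authors deposited signal, reads over exons or uaRNA regions depth-normalized per the file headers; the values show division by 1 factor per library. Cutadapt 1.14, featureCounts, DESeq2 and STAR, with builds mm10 and dm6, are named in the submitters' processing notes; the sources used here give no settings and do not say how the factors were made. The factors were 1, 1.15 and 1.172 (siNT) and 1.767 and 1.046 (siZC3H4), recovered from the values; with them 100% of values were whole within 0.01 reads. The labels' kit is stranded.

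Features with a mean of 10 or more were tested on log2(value + 1) with limma 3.58.1 (lmFit, eBayes with trend; R 4.3.3), siZC3H4 minus siNT, no block, Benjamini-Hochberg over the whole table. Fold changes on that scale understate changes of low features. "Rose" and "fell" mean an adjusted p under 0.05. Intervals are 95% and not adjusted; moderated degrees of freedom were 9.22 (exon), 67.5 (uaRNA) and 14.7 (ratio), so p-values lean on spread borrowed across features. The limma step was also run on simulated reads drawn independently for each library. Those had no replicate effect, so that run does not cover the dependence on single libraries seen here. Alternatives included edgeR 4.0.16 and DESeq2 1.42.0 on recovered reads, which called 345 genes risen and 19 fallen (edgeR) and 537 and 97 (DESeq2). Every listed member is named; libraries' values are given for members that passed and for the extremes of each complex, and log2 differences for the extremes of each companion list. Members and lists were chosen with earlier results of these data known. Sequences and neighbours are from RefSeq (GRCm38.p6); 28 of 34 members matched a promoter entry, 25 within 500 bases.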

Additional observations from a re-analysis of the deposited data

How the results depend on the processing

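With 3 libraries against 2 and no member's exon reads past the threshold, the exon result is a set of intervals and not evidence of equality. The count of exon calls among members was 0 in each direction under every alternative run, except that with a replicate block 1 fell, Hexim1 (log2 -0.49, limma adjusted p = 3.05e-05). The block drops siNT replicate 1 from the comparison. The labels give 2 shared replicate numbers and do not say what a number marks. Same-numbered libraries deviated together (correlations 0.528 and 0.618 in exon reads, 0.376 and 0.426 in uaRNAs). Between siNT replicate 1 and siZC3H4 replicate 2 the correlations were 0.114 and 0.0611. The deviations of the 2 siZC3H4 libraries mirror each other, so the same-number correlations of exon reads rest on 1 contrast, as do those of uaRNAs. Whether the libraries were pairs was not tested. With the block 12 uaRNAs rose, as without it, and 12 rose relative to exon reads in place of 10. In the companion lists the block gave 1 rise among elongation factors, 2 rises and 1 fall in Sm assembly, and 1 fall among U1-associated genes, where no block gave 0; DESeq2 gave 1 rise in Sm assembly.

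Of the member uaRNAs 12 rose and 0 fell. Scaling within the uaRNA table gave 2 rises and 2 falls (TMM), 2 and 2 (median of ratios) and 6 and 1 (equal totals). By construction TMM and median of ratios bring the median of all uaRNAs near 0, while equal totals left it at 0.32; calls above the median were lost too, such as Ctr9 (log2 0.80 under TMM) and Cdc73 (0.54). Under TMM and median of ratios the log2 values of Supt5 were -0.16 and -0.18, of Hexim1 -0.10 and -0.12, of Luc7l2 -0.13 and -0.15, and of Cdk13 -0.78 and -0.81. With each library left out the number of member uaRNAs that rose was 10 to 13, the number that rose relative to exon reads 3 to 10, and the number of exon calls 0 to 0. Leaving out a library gave 0 to 1 rises in the Sm assembly list, the 1 without siNT replicate 3.

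Over all genes, exon reads rose in 1530 and fell in 830 with the block, rose in 537 and fell in 97 by DESeq2, rose in 38 and fell in 0 with no filter on low values, and rose in 277 and fell in 18 as reported. The uaRNA rises numbered 1840 without siZC3H4 replicate 2.

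Depth limited the Snrpd1 uaRNA, which was below the filter, and the uaRNAs of Ell, Aff4, Cdc73, Ctr9, Rtf1 and Snrpe, with 3 to 49.5 reads in the siNT libraries.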
